A study of Mus musculus with 2 samples.

Results

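Aerocytes are the large, thin capillary endothelial cells of the alveolus, and they were measured here in mouse lungs after an allergen challenge. They were chosen by a rule on marker genes: a barcode had at least 3 of the 6 endothelial genes Cldn5, Cdh5, Ptprb, Calcrl, Ramp2 and Tmem100, at least 2 of the 6 aerocyte genes Car4, Ednrb, Fibin, Tbx2, Apln and Chst1, and more of these than of 6 general capillary genes (Gpihbp1, Kit, Aplnr, Adgrl3, Sema3c and Glp1r). At most 2 of 6 venous genes and at most 1 of 5 genes of other lineages were allowed. The rule found 948 aerocytes among 19951 barcodes that passed the filters, 560 of 10842 from WT and 388 of 9109 from KO-labelled mice. The 2 libraries, 1 per genotype, were made by droplet single-cell RNA sequencing that reads the 3' end of transcripts, from lung cells sorted as negative for the leukocyte marker CD45.2.

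The WT mice were C57B6/J and the other library came from mice labelled Plaur KO; Plaur encodes the urokinase receptor uPAR, which binds a protease that activates plasminogen at the cell surface. Both genotypes, with 8 mice each in the series, had been sensitised with LPS and ovalbumin on days 0 and 7 and exposed to ovalbumin aerosol on day 14, so neither library is from an unexposed lung. The labels do not say how many mice went into a library, and they call the material a total lung cell lysate. With 1 library per genotype no difference between genotypes has a replicate check, and all intervals are 95% intervals that cover counting error only.

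The alveolar capillary net is a mosaic of aerocytes and general capillary cells. Aerocytes spread along the thin side of the air-blood barrier, carry the carbonic anhydrase Car4 and the endothelin receptor Ednrb, and depend on epithelial VEGF, which they sense through the receptor Kdr. General capillary cells control vessel tone, divide and act as the stem cells of the net.

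The WT library held 57028943 unique molecular identifiers (UMIs, each 1 counted transcript) in 11776 barcodes and the KO-labelled library 51529241 UMIs in 9771 barcodes. The aerocytes brought 1052424 and 731625 of these. Aerocytes were shallow cells, with medians of 1570 UMIs and 968 genes for WT and 1591.5 UMIs and 973 genes for KO-labelled cells, where all kept barcodes had medians of 4997 and 5570 UMIs. General capillary cells, chosen by the mirror image of the rule (1276 and 806 cells), had similar depth, with medians of 1374 and 1350.5 UMIs. The 2 libraries shared 30 barcode sequences, none of them an aerocyte in both. Free RNA differed between the libraries. The surfactant transcripts Sftpb, Sftpc and Sftpa1 and the club cell transcript Scgb1a1 stood in WT aerocytes at 4.07% of their level over the whole library, and in KO-labelled aerocytes at 0.945%. The surfactant genes alone were closer, each at 1.33% to 2.01% in WT and 0.896% to 0.997% in KO-labelled aerocytes, while Scgb1a1 was at 10.8% and 1.34%. Scgb1a1 alone was at 4060 CPM (UMIs scaled to a common total) of the summed WT aerocytes against 213 CPM of the KO-labelled ones, and 5 WT barcodes held 51.5% of its 4273 UMIs, 1 of them 1507.

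The label was checked on genes that the rule did not use. When genes were ranked by fold over all other kept barcodes, Icam2, Kdr, Rgs6 and Kitl were the leading genes from outside the rule in both libraries. The rule's own Car4, Ednrb and Fibin were also among the top 10 in both, which the choice of cells fixed in advance. Among 11 further aerocyte genes all 11 were past 2-fold higher in aerocytes than in general capillary cells in each library, beside 6.61% of 3785 genes that were so in both libraries. Kdr, the main VEGF receptor, was at 2692 CPM in WT and 2380 CPM in KO-labelled aerocytes and at 304 and 265 CPM in general capillary cells. Emp2, a membrane protein of thin alveolar cells, was at 5908 and 5742 CPM against 149 and 152 CPM. Kdr and Emp2 were seen in 95.9% to 99.7% of aerocytes, so the separation was carried by nearly every cell. Of 10 further general capillary genes 7 were past 2-fold lower in aerocytes in both libraries, beside 9.14% of the 3785 genes. Plvap, which forms the diaphragms of endothelial openings, was at 13.3 and 12.3 CPM in aerocytes against 880 and 1178 CPM. The voltage-gated sodium channel family gene Scn7a went the other way, with 1594 and 1505 CPM in aerocytes and 862 and 663 CPM in general capillary cells, Hilpda was within 2-fold, and Itih5 had no UMI in aerocytes.

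**Figure D1:**
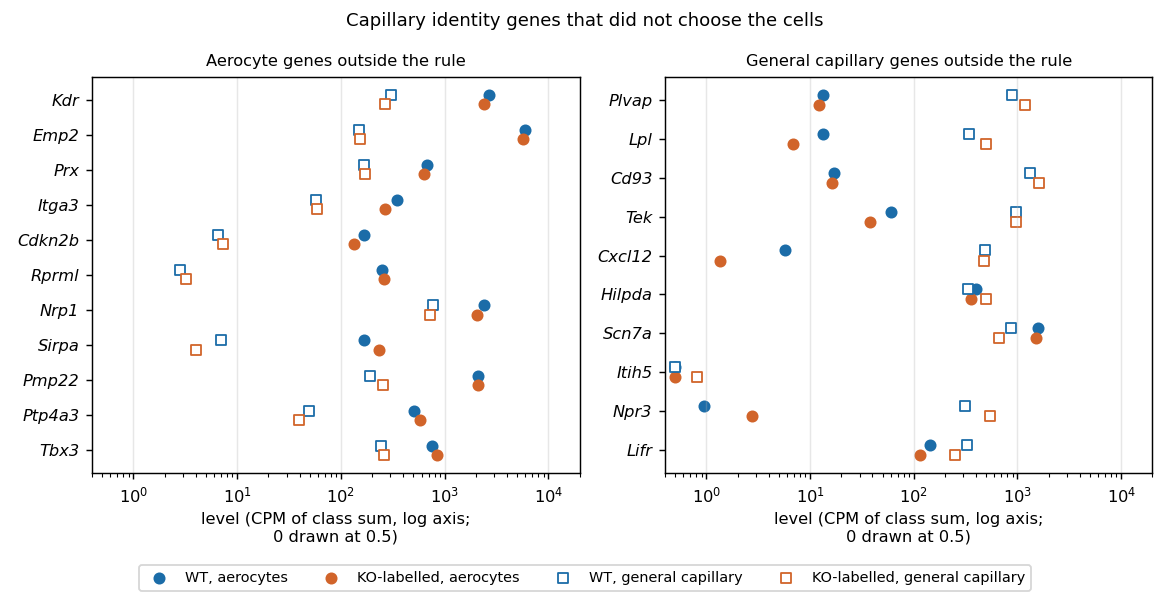
Levels of capillary identity genes that were not part of the rule, as CPM of the summed cells on a log axis, for aerocytes (filled circles) and general capillary cells (open squares) of the WT (blue) and KO-labelled (orange) libraries. All 11 aerocyte genes on the left stand higher in aerocytes, and on the right Plvap, Lpl, Cd93, Tek, Cxcl12, Npr3 and Lifr stand past 2-fold lower while Scn7a stands higher.

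Markers of other cells were mostly low. The pericyte genes Pdgfrb, Cspg4 and Higd1b and the T cell gene Cd3e had no UMI in the aerocytes of either library. Other members of their lists had some, such as Myh11 with 10 and 4 UMIs. The 7 lymphoid genes summed to 6.65 CPM in WT and 98.4 CPM in KO-labelled aerocytes, against 78.3 and 22.7 CPM in general capillary cells. Igkc gave 56 UMIs of the KO-labelled sum, in 0.773% of cells. The 7 myeloid genes summed to 96.0 and 20.5 CPM, against 116 and 7.30 CPM. A list of 6 AT1 genes summed to 2030 and 2348 CPM in aerocytes, but this came from Clic5 (1251 and 1262 CPM) and Hopx (755 and 1074 CPM), whereas the AT1-defining Ager was at 18.1 and 8.20 CPM and Akap5 at 0. Sftpc was at 1058 and 1154 CPM, which was close to the 1201 and 1303 CPM in general capillary cells of the same libraries. The 6 ciliated genes summed to 683 and 525 CPM. Of these Tppp3 was seen in 32.5% and 30.7% of aerocytes, at 353 and 327 CPM against 129 and 67.3 CPM in general capillary cells. The ciliated-defining Foxj1 had 29 and 11 UMIs in all, the fewest of the 6. Tmem212 was at 108 and 62.9 CPM against 70.4 and 38.9 CPM, though seen in only 2.50% and 1.29% of aerocytes. In both libraries 4 of the 6 genes, all but Foxj1 and Rsph1, were higher in aerocytes than in general capillary cells. The 6 airway secretory genes summed to 4295 CPM in WT aerocytes, nearly all of it Scgb1a1, and to 286 CPM in KO-labelled ones. The part of these markers in the results was not tested. Scrublet, a doublet caller, marked 18 WT and 4 KO-labelled aerocytes, which were kept.

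The members differed in how clearly they met the rule. Of the WT aerocytes 49 had 2 of the 6 aerocyte genes, 143 had 3, 198 had 4, 127 had 5 and 43 had all 6. The KO-labelled numbers were 33, 105, 127, 88 and 35. The number found went with depth: the median UMI count rose from 1226 in WT cells with 2 of the genes to 2369 in those with 6, and from 1180 to 2703 in KO-labelled cells. No general capillary gene was seen in 250 WT and 192 KO-labelled aerocytes, 1 was seen in 216 and 149, and 2 or more in 94 and 47. Just outside the rule were 19 WT and 10 KO-labelled barcodes with 1 aerocyte gene and no general capillary gene, and 17 and 4 with as many of the one set as of the other. A further 54 and 38 barcodes met every part of the rule except that they had 2 genes of other lineages, and their medians of 7814 and 6998 UMIs were several times those of aerocytes.

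Cells with 2 or more general capillary genes still looked like aerocytes on genes outside the rule. The summed level of the 11 further aerocyte genes was 15260 CPM in these WT cells, against 16515 CPM in cells with no general capillary gene and 1952 CPM in general capillary cells. In the KO-labelled library the same sums were 14820, 15740 and 1947 CPM. Plvap, in contrast, was at 40.4 CPM in WT and 81.7 CPM in KO-labelled aerocytes with 2 or more general capillary genes, against 4.98 and 0 CPM in those with none. Free RNA and mixed barcodes as a source of these UMIs were not tested.

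Aerocytes made up 5.17% of the kept WT barcodes (exact Clopper-Pearson interval 4.76 to 5.598%) and 4.26% of the kept KO-labelled barcodes (3.85 to 4.69%). Of the barcodes that met the endothelial part of the rule they were 25.7% (23.9 to 27.6%) in the WT and 28.2% (25.8 to 30.6%) in the other. The first share was lower and the second higher in the KO-labelled library, so the direction depended on the denominator. There were 0.439 WT and 0.481 KO-labelled aerocytes per general capillary cell. Both libraries had passed the CD45.2 sort, whose part in these shares was not tested.

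Outside the rule's own genes, 242 of 3766 genes were past 2-fold higher and 338 past 2-fold lower in aerocytes than in general capillary cells in both libraries, and none was past 2-fold in opposite directions. These values describe 2 classes that were chosen by marker genes and were not tested. The 12 highest genes were Rgs6, Pde8b, Rprml, Ccdc184, Egflam, Frrs1, Tmeff2, Itgb5, Emp2, Enho, Sirpa and Slc22a23.

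Of the highest genes, Rgs6, which switches off G protein signals, was at 740 CPM in WT and 750 CPM in KO-labelled aerocytes and at 5.59 and 8.11 CPM in general capillary cells, log2 ratios of 7.05 (6.24 to 8.01) and 6.53 (5.64 to 7.60). The cyclic AMP phosphodiesterase Pde8b was at 273 and 238 CPM against 3.26 and 0.811 CPM. Sirpa, the receptor that binds the self signal CD47, was at 165 and 235 CPM against 6.99 and 4.06 CPM. These levels restate how the genes were chosen and are given as a description. The integrin subunit Itgb5 was at 293 and 231 CPM against 7.46 and 4.87 CPM. Egflam, a matrix protein known from the retinal synapse as pikachurin, was at 210.0 and 199.6 CPM against 3.73 and 2.43 CPM. Frrs1 had 0 UMIs in KO-labelled general capillary cells, which with a floor of 3 UMIs put its log2 ratio at 6.35, with a lower interval end of 6.03.

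The 12 lowest genes were Npr3, Gpr182, Edn1, Cxcl12, Mmrn2, Cd93, Plcb1, Sema3g, Entpd1, Plvap, Gja4 and Hmcn1. Npr3, the clearance receptor of natriuretic peptides, had 1 UMI in WT and 2 UMIs in KO-labelled aerocytes, at 0.950 and 2.73 CPM, against 310 and 543 CPM in general capillary cells. Edn1, the vasoconstrictor endothelin, had 2 and 1 UMIs, at 1.90 and 1.37 CPM, against 175 and 269 CPM in general capillary cells. The receptor Ednrb was at 1558 and 1279 CPM in aerocytes, but as a gene of the rule it had to be found there. Of the endothelin, apelin and adrenomedullin list, the ligand Apln stood in aerocytes and its receptor Aplnr in general capillary cells by the rule itself, which is a description. The chemokine Cxcl12 had 6 and 1 UMIs in aerocytes, at 5.70 and 1.37 CPM, against 486 and 470 CPM. Entpd1, the ectoenzyme that removes extracellular ATP, was at 4.75 and 5.47 CPM against 331 and 376 CPM.

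One endothelial gene of the rule was nearly absent from the cells it helped to choose. Ptprb, the vascular phosphatase VE-PTP that restrains the TIE2 receptor, had 50 UMIs in WT and 21 UMIs in KO-labelled aerocytes, at 47.5 and 28.7 CPM, against 2658 and 2439 CPM in general capillary cells. Tek, which encodes TIE2, was at 60.8 and 38.3 CPM in aerocytes against 969 and 970 CPM. The transcription factor Sox17 was likewise lower in aerocytes, at 21.9 and 23.2 CPM against 253 and 291 CPM. The junction genes were mixed. Pecam1 was at 2002 and 1860 CPM in aerocytes against 1459 and 1532 CPM, whereas Jam2, a junctional adhesion molecule, had 17 and 11 UMIs in aerocytes against 203 and 130 UMIs. The connexin gene Gja4 was at 4.75 and 0 CPM against 305 and 337 CPM.

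**Figure D2:**
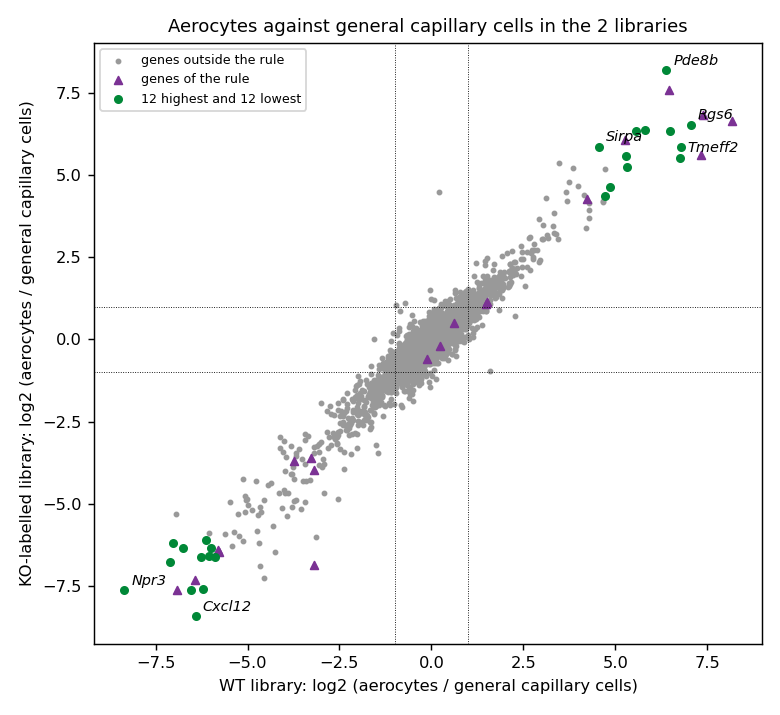
Log2 ratio of aerocytes over general capillary cells for 3785 genes in the WT library (horizontal axis) and the KO-labelled library (vertical axis), with genes of the rule as triangles, the 12 highest and 12 lowest other genes in green and dotted lines at 2-fold. The genes lie along the diagonal, and Rgs6, Pde8b, Tmeff2 and Sirpa at the top and Npr3 and Cxcl12 at the bottom are far from 0 in both libraries.

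No aerocyte had UMIs of 2 or more of 7 cell cycle genes, 0 of 560 WT cells, which allows a share of up to 0.657% with such UMIs, and 0 of 388 KO-labelled cells, which allows up to 0.946%. At the shallow depth of these cells this does not limit the share of cells that express the genes. In general capillary cells 6 of 1276 and 4 of 806 barcodes did.

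Within the aerocytes a small number of cells carried an interferon and chemokine programme. To compare cells at one depth, each was thinned to 1500 UMIs, which kept 303 WT and 212 KO-labelled aerocytes and left out 257 and 176 shallower ones. The variance of a gene over its mean, which is near 1 for pure counting noise, had a median of 1.06 over 2477 genes in both libraries. For Cxcl10, the interferon-induced ligand of the chemokine receptor CXCR3, it was 36.3 in WT and 31.5 in KO-labelled cells. For its relative Cxcl9 it was 13.34 and 15.03. The median aerocyte had no Cxcl10 UMI, and the highest had 86 and 69. The 10 most variable genes also held Mgp, Gsn and Wfdc2, for which free RNA could give over 25% of the level, Cbr2, which varied with the airway gene Wfdc2 across cells (Pearson r of 0.68 and 0.81), and Gm42418, Malat1, AW112010 and Iigp1.

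At least 2 Cxcl10 UMIs were found in 43 of 303 thinned WT aerocytes (14.2%, 10.5 to 18.6%) and in 22 of 212 thinned KO-labelled aerocytes (10.4%, 6.62 to 15.3%). These cells had medians of 11 and 14.5 Cxcl10 UMIs. At 1 or more UMIs the shares were 16.5% and 11.3%, and unthinned they were 13.9% and 10.8%. Barcodes with no endothelial gene, a mixed set that can hold other makers of Cxcl10, at median depths of 5713.5 and 6003 UMIs against 1570 and 1591.5 UMIs in aerocytes, gave 6.60% and 1.95% at the same 2 UMIs after thinning. Thinned general capillary cells gave 10.2% and 10.6%, with counting intervals (7.73 to 13.1% and 7.44 to 14.6%) that overlapped those of aerocytes. The cut at 2 UMIs was set after the counts had been seen.

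The genes that went with Cxcl10 from cell to cell were interferon-induced genes, adhesion molecules and Cd274. Over 4188 genes, ranked by the lower Pearson r of the 2 libraries over the thinned cells, the closest were Iigp1 (0.73 in WT, 0.80 in KO-labelled), Cxcl9 (0.78 and 0.71), Gbp2 (0.68 and 0.69), Vcam1 (0.67 and 0.72), Gbp5 (0.69 and 0.64) and Cd274 (0.65 and 0.59). The cells share a library and a depth of 1500 UMIs, and the guanylate-binding protein genes are paralogs that may share reads. Vcam1, the adhesion molecule that binds the integrin VLA-4 of eosinophils and lymphocytes, averaged 1.72 UMIs per cell with Cxcl10 and 0.0423 without it in the WT library, and 1.32 and 0.0263 in the KO-labelled library. Cd274, the checkpoint ligand PD-L1, averaged 2.05 and 0.154 UMIs in WT and 1.59 and 0.0895 in KO-labelled cells. Icam1, the ligand of leukocyte beta2 integrins, was seen in most aerocytes but averaged 7.30 against 1.46 and 8.86 against 1.75 UMIs. These are levels in cells picked by Cxcl10 and were not tested.

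Identity genes stood closer together. Car4 averaged 3.21 UMIs in WT cells with Cxcl10 and 4.57 in those without, and 4.18 and 5.42 in the KO-labelled library. Kdr averaged 2.67 against 4.42 and 2.32 against 3.60 UMIs. Car4, Kdr, Emp2 and Cldn5 were all lower in cells with Cxcl10 in both libraries, at 0.606 to 0.842 of the level in the other aerocytes, and Car4 and Cldn5 are genes of the rule. Cd3e and the interferon gene Ifng had no UMI in any thinned aerocyte, with or without Cxcl10. Scgb1a1 averaged 21.1 UMIs in WT cells with Cxcl10 and 3.76 in those without, though fewer of them had a Scgb1a1 UMI (79.1% against 86.9%). Scrublet marked 2 of the 43 cells, and the part of mixed barcodes in the pattern was not tested. In the KO-labelled library Scgb1a1 averaged 0.545 and 0.274 UMIs and Scrublet marked 0 of the 22.

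**Figure D3:**
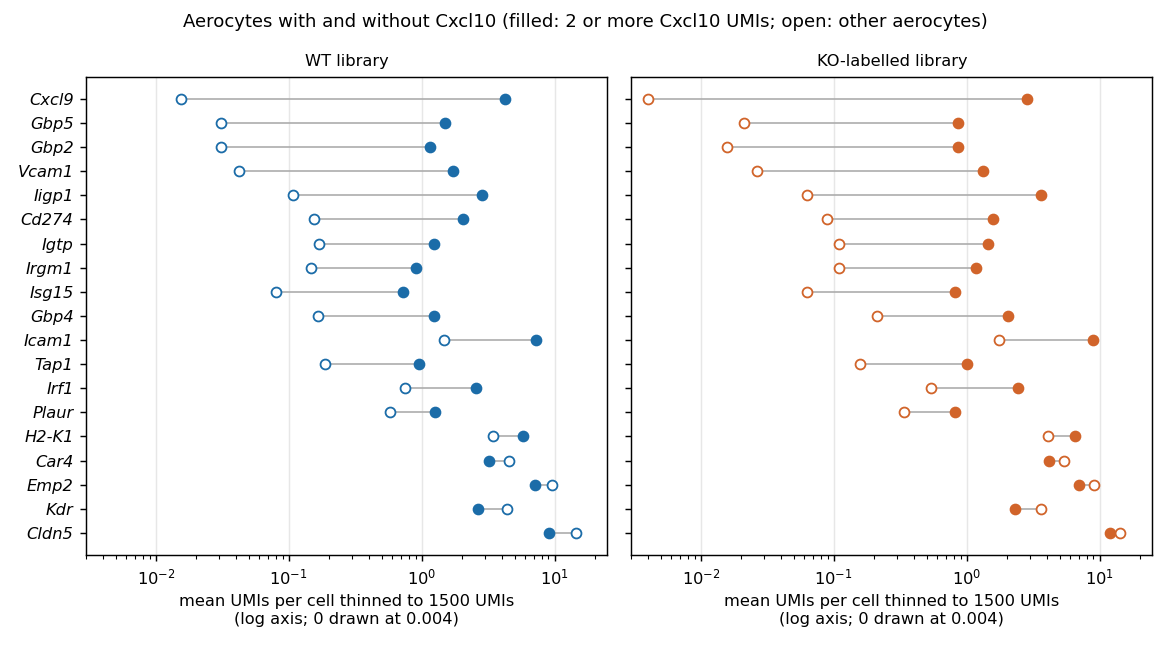
Mean UMIs per aerocyte, each thinned to 1500 UMIs, on a log axis for cells with 2 or more Cxcl10 UMIs (filled; 43 WT and 22 KO-labelled) and other aerocytes (open; 260 and 190). Cxcl9, Gbp5, Gbp2, Vcam1, Iigp1 and Cd274 are apart by 13.3-fold or more in the WT library, while Car4, Emp2, Kdr and Cldn5 are somewhat lower in cells with Cxcl10.

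Promoters of the interferon list and of Cd274 were searched for the interferon-stimulated response element. In the RefSeq promoter table of GRCm38.p6, which covers 250 bases before to 50 bases after a gene's start, the letters GAAANNGAAA on either strand, overlapping matches included, were found in 3.44% of 32851 windows and in the windows of 4.72% of 2586 genes with at least 100 UMIs in aerocytes. They were found for 9 of 12 genes of the interferon list, counted with Cd274, that the table held. The 9 were Cxcl10, Gbp2, Gbp5, Gbp7, Igtp, Irgm1, Isg15, Stat2 and Bst2, and Cxcl9, Cd274 and Oasl2 had no match in this window. Among the 6 genes closest to Cxcl10, Gbp2 and Gbp5 had a match, Cxcl9 and Cd274 had none, and Iigp1 and Vcam1 were not among the 12. The 250 bases before the start are given for the chemokine that marks the cells, for the 2 guanylate-binding protein genes closest to it and for Isg15 with its 3 overlapping matches, on the strand of the gene with matches in capitals.
Cxcl10 (chr5:92348890-92349139, minus strand): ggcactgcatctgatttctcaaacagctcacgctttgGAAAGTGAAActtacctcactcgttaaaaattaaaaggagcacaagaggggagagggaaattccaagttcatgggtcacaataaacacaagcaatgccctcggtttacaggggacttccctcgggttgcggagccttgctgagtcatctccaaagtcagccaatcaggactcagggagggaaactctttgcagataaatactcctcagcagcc
Gbp2 (chr3:142620413-142620662, plus strand): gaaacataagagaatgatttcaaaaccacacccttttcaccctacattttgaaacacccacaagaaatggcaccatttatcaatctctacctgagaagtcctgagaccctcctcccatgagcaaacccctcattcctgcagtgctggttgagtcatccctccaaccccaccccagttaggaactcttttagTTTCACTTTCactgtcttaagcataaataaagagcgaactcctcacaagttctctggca
Gbp5 (chr3:142496684-142496933, plus strand): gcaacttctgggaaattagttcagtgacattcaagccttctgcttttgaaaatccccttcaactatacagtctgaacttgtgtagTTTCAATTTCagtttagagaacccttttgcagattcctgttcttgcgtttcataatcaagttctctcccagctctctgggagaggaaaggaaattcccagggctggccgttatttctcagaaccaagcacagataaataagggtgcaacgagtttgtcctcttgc
Isg15 (chr4:156200819-156201068, minus strand): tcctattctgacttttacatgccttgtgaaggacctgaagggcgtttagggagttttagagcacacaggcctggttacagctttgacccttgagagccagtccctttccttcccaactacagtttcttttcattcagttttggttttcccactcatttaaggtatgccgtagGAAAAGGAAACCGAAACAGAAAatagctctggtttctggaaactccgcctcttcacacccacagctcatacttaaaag
The match began 213 bases before the start in Cxcl10, 59 in Gbp2, 165 in Gbp5 and 78, 72 and 66 in Isg15. In Gbp2 and Gbp5 it lay on the opposite strand and reads TTTCNNTTTC. A match is a description of the letters, and binding was not measured.

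The comparison of the genotypes started from Plaur, whose gene lies at chr7:24462484-24475968 (GRCm38). Plaur had 467 UMIs in WT and 183 UMIs in KO-labelled aerocytes, at 444 and 250 CPM, a log2 ratio of -0.83 (-1.08 to -0.58). Transcript was thus still counted in the KO-labelled aerocytes, and since the reads come from the 3' end this does not check the knockout. In general capillary cells Plaur went the other way, with 92.3 CPM for WT and 153 CPM for KO-labelled cells, a log2 ratio of 0.72 (0.43 to 1.02). Aerocytes had more Plaur than general capillary cells in both libraries. After thinning to 1500 UMIs, 44.2% of WT and 28.3% of KO-labelled aerocytes had a Plaur UMI, against 11.5% and 19.0% of general capillary cells and 4.52% and 3.93% of barcodes with no endothelial gene. Without thinning the aerocyte shares were 47.1% and 34.5%.

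Plaur also varied with Cxcl10 inside the aerocytes. It averaged 1.26 UMIs in thinned WT cells with Cxcl10 and 0.577 in those without, and 0.818 and 0.337 in the KO-labelled library. The KO-labelled level was 0.652 of the WT level in cells with Cxcl10 and 0.584 in cells without, so Plaur was lower on the KO-labelled side in both kinds of aerocyte. For cells with Cxcl10 this rests on 54 Plaur UMIs in 43 WT cells and 18 in 22 KO-labelled cells, and no interval was computed. Thbd, thrombomodulin, which restrains clotting on the vessel wall, was at 1051 and 931 CPM, a log2 ratio of -0.18 (-0.31 to -0.04). Of the 6 coagulation and plasminogen genes with at least 100 UMIs, Plaur was the one past 1.5-fold, beside 1.90% of all genes past it on the higher and 3.06% on the lower side. Among 26 such genes that start within 5 Mb of Plaur, 1 was past 1.5-fold higher, Pak4, and 1 lower, Bcam, which is 7.69%, with a median log2 ratio of 0.03.

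Between the libraries most aerocyte genes stood close to each other. Of 3266 genes with at least 100 UMIs over both libraries, 62 (1.90%) were past 1.5-fold higher and 100 (3.06%) past 1.5-fold lower in the KO-labelled library, and the median log2 ratio was 0.00. With TMM scaling, which moved all ratios by 0.06, the split was 80 higher and 78 lower. For 20 of the genes free RNA could give over 25% of the aerocyte level, and 10 of them were among the lower. Of the 62 higher genes 58 were also measured in general capillary cells of the same libraries, where 17 were past 1.5-fold higher and 2 lower. Of the 100 lower genes 98 were measured there, with 27 past 1.5-fold lower and 3 higher. In general capillary cells 2.71% of 5569 genes were past 1.5-fold higher and 4.27% lower.

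Heat-shock chaperones formed the clearest group on the higher side. The list is mostly of cytosolic chaperones and their helpers, and also holds mitochondrial and endoplasmic reticulum ones. These proteins fold and protect others and are induced together by the factor HSF1. Of 20 measured members 6 were past 1.5-fold higher (Hspa8, Dnaja1, Cacybp, Hsp90ab1, Ahsa1 and Hsph1) and none lower, beside the 1.90% of all genes, and the list's median log2 ratio was 0.41. Hspa8, the constitutive HSP70, was at 631 CPM in WT and 1570.5 CPM in KO-labelled aerocytes, a log2 ratio of 1.32 (1.18 to 1.46). Its J-domain partner Dnaja1 was at 419 and 916 CPM, 1.13 (0.95 to 1.30), and Hsp90ab1 at 2224 and 3706 CPM, 0.74 (0.66 to 0.82). Hspa8 was seen in 52.5% of thinned WT and 83.0% of thinned KO-labelled aerocytes, so the difference was spread over many cells. In general capillary cells 9 of 20 members were past 1.5-fold higher, beside 2.71% of all genes, with a median of 0.49, and in barcodes with no endothelial gene Hspa8 was seen in 61.0% and 79.7% after thinning. The higher chaperone level was therefore shared with general capillary cells and not limited to aerocytes.

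Other stress lists stood closer to 0. All 15 measured genes of the unfolded protein response had a log2 ratio above 0, with a median of 0.25, but none was past 1.5-fold. Hspa5, the chaperone BiP of the endoplasmic reticulum, was at 691 and 884 CPM, 0.36 (0.20 to 0.51). Of 8 glucocorticoid-induced genes 2 were past 1.5-fold higher, beside 1.90% of all genes, and the median was 0.38: Tsc22d3, the leucine zipper GILZ, was at 198 and 306 CPM, 0.63 (0.35 to 0.91), and the cell cycle inhibitor Cdkn1a at 899 and 1394 CPM, 0.63 (0.50 to 0.76). In general capillary cells 5 of 10 glucocorticoid-induced genes were past 1.5-fold higher, beside 2.71% of all genes. Of 14 immediate early genes none was past 1.5-fold higher and 2 lower, beside 3.06% of all genes. Atf3 was at 105 and 58.8 CPM, -0.83 (-1.37 to -0.31), and Egr1 at 129 and 77.9 CPM, -0.73 (-1.20 to -0.27), whereas Jun was at 1630 and 1976 CPM, 0.28 (0.18 to 0.38). In aerocytes with no general capillary gene Egr1 turned to 0.45.

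Promoters of chaperone genes were searched for the heat-shock element in the same table. The letters TTCNNGAA or GAANNTTC on either strand, overlapping matches included, were found in 15.1% of all windows, in 14.1% of genes measured in aerocytes and in 10 of 17 measured chaperone genes. These letters hold 2 of the element's repeated units. A run of 3 units was found in 0.603% of all windows, in 0.851% of measured genes and in 5 of the 17 chaperone genes. Of the 6 genes past 1.5-fold the table held 4, of which Dnaja1 and Hsph1 had a match of 2 units and only Hsph1 a run of 3. Their 250 bases before the start are given on the strand of the gene, with the match in capitals.
Dnaja1 (chr4:40722218-40722467, plus strand): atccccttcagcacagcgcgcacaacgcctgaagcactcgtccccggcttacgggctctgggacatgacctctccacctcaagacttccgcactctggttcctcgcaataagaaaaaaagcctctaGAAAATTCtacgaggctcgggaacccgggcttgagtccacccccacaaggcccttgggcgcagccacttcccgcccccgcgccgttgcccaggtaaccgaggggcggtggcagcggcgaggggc
Hsph1 (chr5:149636337-149636586, minus strand): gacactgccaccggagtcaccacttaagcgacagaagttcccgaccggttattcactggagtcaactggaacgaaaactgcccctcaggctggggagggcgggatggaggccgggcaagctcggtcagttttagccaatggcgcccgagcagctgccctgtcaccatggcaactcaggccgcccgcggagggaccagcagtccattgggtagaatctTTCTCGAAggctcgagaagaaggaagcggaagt
The match printed began 124 bases before the start in Dnaja1 and 33 in Hsph1, and the window of Hsph1 held 2 more that began 36 and 41 bases after the start. The run of 3 units in Hsph1 lay at these later matches, outside the bases printed, so each printed match holds 2 units. The table held 3 windows for Dnaja1, of which the other two had no match, and 2 for Hsph1, both with matches. It is again a description of letters, since no binding was measured.

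Interferon-induced genes leaned to the lower side. Of 14 measured members none was past 1.5-fold higher and 2 lower, beside 3.06% of all genes, with a median log2 ratio of -0.28. In general capillary cells the list's median was 0.08. There 2 of 20 measured members were past 1.5-fold higher and 1 lower, beside 2.71% and 4.27% of all genes. Gbp5 was at 166 CPM in WT and 97.0 CPM in KO-labelled aerocytes, -0.78 (-1.20 to -0.37), and Gbp2 at 144 and 91.6 CPM, -0.66 (-1.09 to -0.23). Cxcl10 was at 1797 and 1374 CPM, -0.39 (-0.50 to -0.28), and in general capillary cells it was higher in the KO-labelled library, at 0.65. Vcam1 was at 167 and 107 CPM, -0.65 (-1.05 to -0.26), and Cd274 at 298 and 174 CPM, -0.78 (-1.09 to -0.48). These genes stood in few cells. In the thinned WT aerocytes the 43 cells with Cxcl10 held 65 Gbp5 UMIs and 74 Vcam1 UMIs, and the other 260 cells 8 and 11. The counting intervals take each UMI as independent and are too narrow for genes whose UMIs stand in few cells. The interferon list's median was 0.05 in aerocytes with no general capillary gene and Cxcl10 was at 0.14 there, and Gbp5 was at -0.16 in cells thinned to 1000 UMIs. Of 13 MHC class I genes none was past 1.5-fold, with a median of 0.09. The antigen-presenting H2-K1 was at 2685 and 3018 CPM, 0.17 (0.09 to 0.25), though H2 genes are close paralogs that may share reads.

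**Figure D4:**
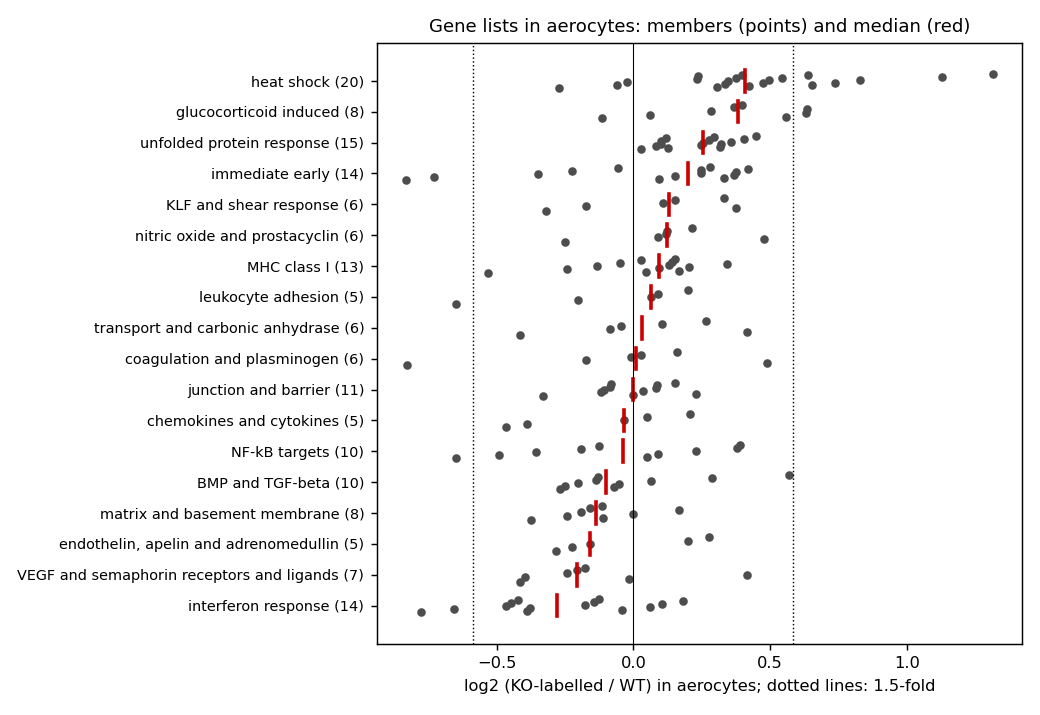
Log2 ratio of the KO-labelled over the WT library in aerocytes for the members of each gene list with at least 100 UMIs (points, their number in brackets) and the list's median (red), with dotted lines at 1.5-fold. Lists with under 5 such members are left out. Of the lists drawn, heat-shock genes have the highest median, 0.41, and interferon-induced genes the lowest, -0.28, while junction genes are centred on 0.

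Genes of vessel function differed little. The 11 junction and barrier genes had a median of 0.00 and none past 1.5-fold. Cdh5, VE-cadherin, was at 2578 and 2576 CPM, 0.00 (-0.09 to 0.08), and the tight junction gene Cldn5 at 9096 and 9643 CPM, 0.08 (0.04 to 0.13). Of 7 VEGF and semaphorin genes none was past 1.5-fold and the median was -0.21: Kdr was at -0.18 (-0.26 to -0.09) and its co-receptor Nrp1 at -0.21 (-0.30 to -0.11). The repellent ligand Sema6a was at 840.0 and 630.1 CPM, -0.41 (-0.58 to -0.25). The plexin Plxna2, a receptor for semaphorins, was the highest of the 7 at 0.42 (0.15 to 0.68), and the VEGF receptor Flt1 was at -0.01 (-0.17 to 0.14). The endothelin receptor Ednrb was at -0.28 (-0.40 to -0.17) and the ligand Apln at 0.28 (0.02 to 0.53), with no member of the 5 measured past 1.5-fold. Car4 was at 2876 and 3455 CPM, 0.26 (0.19 to 0.34). Among 10 BMP and TGF-beta genes, 6 nitric oxide and prostacyclin genes and 8 matrix and basement membrane genes none was past 1.5-fold, and the medians were -0.10, 0.12 and -0.14. No cholesterol synthesis gene reached 100 UMIs in aerocytes.

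Among genes with at least 200 UMIs and with 100 CPM in the higher library, those furthest apart between the libraries were mostly outside these lists. Hprt, the purine salvage enzyme on the X chromosome, was at 50.4 CPM in WT and 267 CPM in KO-labelled aerocytes, a log2 ratio of 2.40 (1.96 to 2.87), and in general capillary cells at 72.2 and 159 CPM, 1.14 (0.83 to 1.45). Cmss1 was at 1630 and 3193 CPM, 0.97 (0.88 to 1.06), with 0.94 in general capillary cells, so Hprt and Cmss1 stood higher in both capillary types. Cyclin D1, Ccnd1, was at 354 and 611 CPM, 0.79 (0.58 to 0.99). Pcolce2, a procollagen-processing enhancer, was at 203 and 366 CPM in aerocytes, 0.85 (0.58 to 1.11), and at 18.2 and 8.92 CPM in general capillary cells, -1.03 (-2.14 to -0.03). On the lower side Lrmda was at 161.5 and 79.3 CPM, -1.03 (-1.48 to -0.59), the splicing factor Srsf5 at 323.1 and 169.5 CPM, -0.93 (-1.24 to -0.63), and Bcam, the basal cell adhesion molecule that binds laminin, at 698 and 406 CPM, -0.78 (-0.98 to -0.59). General capillary cells had ratios of -0.48, -0.43 and -0.53 for these 3 genes. For Cd274 they had 0.16 (-0.11 to 0.43).

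Among genes with at least 100 UMIs in both capillary types, 5 were past 1.5-fold in opposite directions in aerocytes and general capillary cells. These were Plaur, Ido1, Ifitm1, Slc38a2 and Cnep1r1, and apart from Plaur they were named after their values were seen. They were 2 of the 58 higher and 3 of the 98 lower aerocyte genes measured in both types. Of all genes measured in general capillary cells, 4.27% were past 1.5-fold lower and 2.71% higher. Ido1, the interferon-induced enzyme that breaks down tryptophan, had 114 UMIs in WT and 33 UMIs in KO-labelled aerocytes, at 108 and 45.1 CPM, a log2 ratio of -1.26 (-1.87 to -0.69). In general capillary cells Ido1 was at 35.9 and 88.4 CPM, 1.30 (0.87 to 1.74). Ifitm1, an interferon-induced membrane protein, was at 68.4 and 127 CPM in aerocytes, 0.89 (0.43 to 1.36), and in general capillary cells at 58.7 CPM for WT and, with 7 UMIs, at 5.68 CPM for KO-labelled cells, -3.37 (-4.71 to -2.29). Ido1 and Ifitm1 thus differed in direction from each other as well. The amino acid transporter Slc38a2 was at 70.3 and 45.1 CPM in aerocytes and at 122 and 186 CPM in general capillary cells. Cnep1r1, part of a phosphatase complex of the nuclear envelope, was at 48.5 and 77.9 CPM against 53.1 and 34.1 CPM.

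With the same minimum of 200 UMIs, the other genes among the 12 at each end were Sfr1, Cacybp, Cdk8, Ucp2, Psmc3 and Mat2a on the higher side, between 0.78 and 0.89, and Nfia, Tmem243, Adk, Pan3, Ndufb2 and Gadd45g on the lower side, between -0.78 and -0.67.

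**Figure D5:**
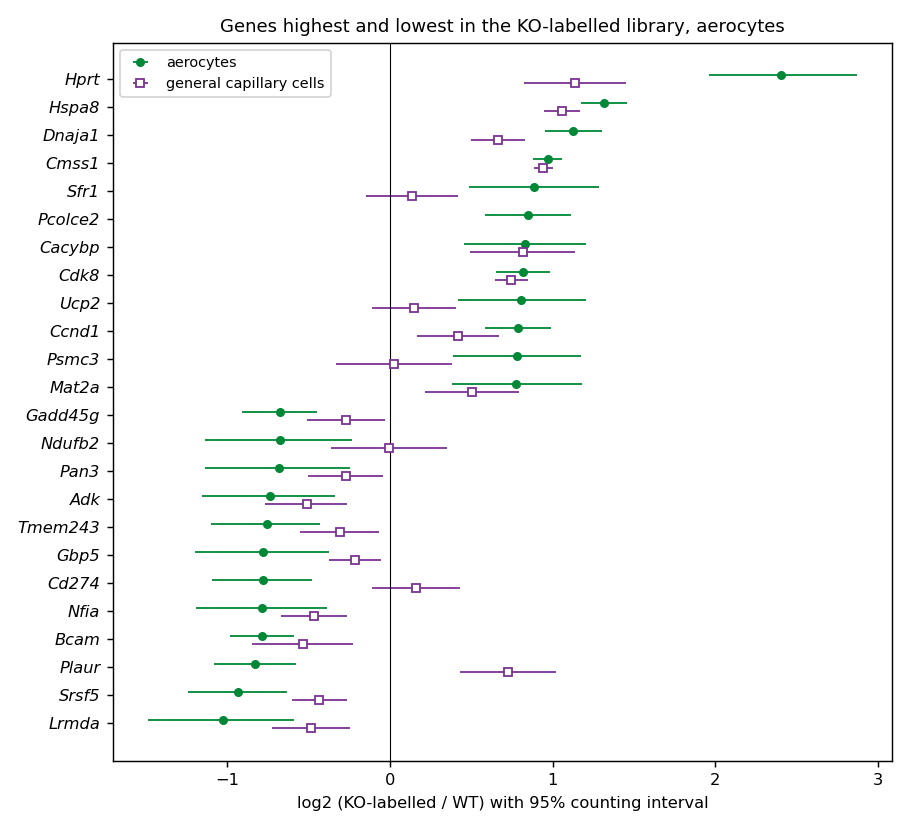
Log2 ratio of the KO-labelled over the WT library for the 12 genes highest and the 12 lowest in aerocytes among those with at least 200 UMIs (circles), with the same genes in general capillary cells (squares; left out under 100 UMIs) and 95% counting intervals. Hprt stands at 2.40, and Plaur at -0.83 in aerocytes and 0.72 in general capillary cells.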

How the data were processed

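The deposited matrices hold counts, raw UMI counts per gene and barcode that the authors wrote with Cell Ranger, version 7.0.0 per the file headers; the submitters' processing notes name 7.0.0, 7.1.0 and mm10. Barcodes needed 500 genes or more and a mitochondrial share of UMIs up to 15%, and the rule was applied without clustering. Doublets marked by Scrublet (scanpy 1.11.5, expected share 8%) were 595 and 137, and they were kept, with their removal as an alternative. CPM values are UMI sums of a class in 1 library over that class total. Ratios have exact conditional binomial 95% intervals, a gene without UMIs stands at a floor of 3 UMIs, and no test was made. Free RNA was estimated from Sftpc, Sftpb, Sftpa1 and Scgb1a1. TMM factors came from edgeR 4.0.16. Positions are from GENCODE M21 (GRCm38), in which 32235 of 32285 genes were found.

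The members and the gene lists were chosen with earlier results of these data known. Named were Plaur, genes of the rule and of the identity lists, up to 3 highest and 3 lowest genes per list, the 12 genes highest in each library (at least 200 UMIs, 100 CPM), the 12 highest and lowest against general capillary cells, and the 10 most variable. Jun, Hsp90ab1, Ahsa1, Hsph1, Pak4, Ido1, Ifitm1, Slc38a2, Cnep1r1 and the genes set against Cxcl10 were named after their values were seen.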

Additional observations from a re-analysis of the deposited data

Results flagged for a closer look

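Plaur stood out because its direction differed between the 2 capillary types: the log2 ratio of the KO-labelled over the WT library was -0.83 in aerocytes and 0.72 in general capillary cells of the same libraries. So did Ido1 with -1.26 and 1.30, Slc38a2 with -0.64 and 0.61, Ifitm1 with 0.89 and -3.37 and Cnep1r1 with 0.69 and -0.64, among genes with at least 100 UMIs in both types. There was 1 library per genotype, and the differences between the cell types were not tested. Across 11 alternatives the aerocyte value of Plaur lay between -1.13 and -0.77.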

How the results depend on the processing

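No paired analysis was possible because each genotype has 1 library, and for the same reason no replicate could be left out. The 62 higher and 100 lower genes became 32 and 34 in aerocytes with no general capillary gene, 39 and 46 in cells thinned to 1000 UMIs, 167 and 384 at 50 UMIs, 23 and 24 at 200 UMIs, 2848 and 3110 with no minimum, and 4 and 18 past 2-fold; fewer UMIs and genes were then measured or another threshold applied. The split was 82 and 71 with free RNA subtracted. Leaving out cells of 20 or more Scgb1a1 UMIs, which was chosen after seeing the data, gave 67 and 86. Against general capillary cells the 250 higher and 346 lower genes became 163 and 210 at 200 UMIs and 528 and 697 past 1.5-fold, and the lower ones 177 with 1000 genes or more and a mitochondrial share up to 10%. That filter gave shares of kept barcodes of 2.94% and 2.29% and a KO-labelled share of endothelial barcodes of 32.7%. With at least 3 aerocyte genes the WT shares were 4.71% and 23.45% and the KO-labelled endothelial share 25.8%. With no general capillary gene the shares of kept barcodes were 2.31% and 2.11%, and those of endothelial barcodes 11.5% and 13.9%. Egr1 changed sign with no general capillary gene, to 0.45; the cause was not tested. Of 1419 values for single genes, 67 fell outside the counting interval of the reported value, beside the change of sign of Egr1. Of 266 values for list medians, 6 moved by more than the median distance from the centre to the end of their members' intervals. The heat-shock median lay between 0.38 and 0.62 and the interferon median between -0.50 and 0.05 over 14 alternatives. Depth limits what can be said of cells with Cxcl10, since 43 and 22 cells carry those values.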
